A study of Mus musculus
Rattus norvegicus and Mus musculus with 6 samples.

Results

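H2-Ab1, Cd74, Ifi30 and H2-Ea encode proteins of MHC class II antigen presentation, and 5 of the 46628 probes of the mouse bead arrays read them. H2-Ab1 (gene ID 14961) had 2 probes, Cd74 (gene ID 16149) and Ifi30 (gene ID 65972) had 1 each, found by the gene ID inside the probe name. The H2-Ea probe carries no gene ID. Its name rests on a match between its difference and the one given for H2-Ea in the study's list of genes higher in coculture, whose description names both the A alpha and the E alpha chain, so its direction is no independent result. The 4 genes were chosen by their values on these arrays, namely a spread over the coculture arrays for H2-Ab1, Cd74 and H2-Ea and a higher level in coculture for Ifi30 and H2-Ea. Their levels are therefore a description, without a test.

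MHC class II molecules are pairs of an alpha and a beta chain on the surface of antigen presenting cells such as dendritic cells, B cells and macrophages, and they show peptides of endocytosed proteins to CD4 T cells. The chains assemble in the endoplasmic reticulum with the invariant chain, which fills the peptide groove until proteases of the endosome degrade it. The peptide editor H2-DM then exchanges the last fragment for an antigen peptide. The class II transactivator Ciita, which interferon gamma induces, together with the factors RFX and NF-Y drives the transcription of the chains, of the invariant chain and of H2-DM.

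The RNA came from lin-/c-kit+ hematopoietic SC, taken from tibia and femur of C57Bl/6 mice, labelled as male, whose age the labels do not give. The SC were stained with the dye CFDA, and the paper calls the monoculture controls identically treated. In the 3 coculture experiments, SC lay for 48 h on NRVCM from neonatal Wistar rats, labelled as female. In the 3 monoculture experiments, SC were kept alone for 48 h. Both kinds of SC were sorted by FACS before RNA isolation, monoculture wells held more SC than coculture wells, and every array came from a culture experiment of its own. Values are log2 signals after the authors' normalization, with the same distribution on all 6 arrays.

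The mice were labelled as male, and 5 of the 6 arrays had Xist signals without signals of Y-linked genes. Eif2s3y, a gene of the Y chromosome, had a log2 signal of 8.93 on the array of coculture replicate 2 and was at background on the other 5 arrays. Kdm5d, also Y-linked, was above background on that array alone (6.94), while the Y-linked genes Ddx3y and Uty were at background on all 6 arrays, coculture replicate 2 included. The brighter probe of Xist, the RNA of the inactive X chromosome of females, was at 6.84 on coculture replicate 2. On the other 5 arrays, in both groups, it was between 8.21 and 8.80. The other Xist probe was at background on all 6 arrays. A signal counted as background at or under that array's brightest of 39 probes for reporter, vector and bacterial sequences (6.75 to 6.86), a limit chosen after the values were seen. H2-D1, which encodes a class I heavy chain, had log2 signals of 11.83, 12.30 and 12.68 in coculture replicates 1, 2 and 3 and none above background in monoculture. Mice of the H2-b haplotype, to which C57BL/6 belongs, make no E alpha chain, and the RefSeq annotation of that strain lists H2-Ea as a transcribed pseudogene. Whether the signals of the probe named H2-Ea, described below, go against the labelled strain is uncertain. That probe may read the A alpha chain, and a transcribed pseudogene can give RNA without a protein. An MHC haplotype that differed between the mice of both groups and an effect of NRVCM cannot be told apart. The defining markers of the labelled SC, Kit, Cd34 and Ly6a, were not analysed here, since no probe could be named for them. Of the 15 progenitor genes chosen, 4 could be named, and each of their 5 probes was above background on at least 1 array. Of these, Lmo2, a transcription regulator of blood progenitors, had mean log2 signals of 12.22 ± 0.22 in coculture and 12.30 ± 0.03 in monoculture (SD, n = 3 each). Cebpa, a transcription factor of myeloid progenitors, had 12.07 ± 0.28 and 12.67 ± 0.34 on its brighter probe (difference -0.60, limma adjusted p = 0.18). Its dimmer probe went the other way, with a difference of 0.23 (limma adjusted p = 0.67). Hoxa9, a homeobox factor of progenitors, had 7.05 to 7.28 in coculture and 6.79 to 6.86 in monoculture, the latter close to the background limits. All 3 coculture arrays lay above the monoculture arrays (difference 0.34, limma adjusted p = 0.032), below the 1.5-fold needed for a call.

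H2-Ab1, the gene of the A beta chain, was bright in both groups and varied far more between the coculture arrays than between the monoculture arrays. Its brighter probe had log2 signals of 9.95, 11.19 and 12.65 in coculture replicates 1, 2 and 3, and of 12.15, 12.29 and 11.65 in monoculture replicates 1, 2 and 3. Coculture replicates 1 and 2 thus lay below all monoculture arrays, and replicate 3 lay above all of them. The dimmer probe had log2 signals of 9.69, 10.53 and 11.92 in coculture and of 11.90, 12.16 and 11.49 in monoculture. Here replicates 1 and 2 again lay below all monoculture arrays, while replicate 3 fell within their range. Both probes had the same order of the 3 coculture arrays. The coculture and monoculture means of the brighter probe were 11.26 ± 1.35 and 12.03 ± 0.33 (SD, n = 3 each). Those of the dimmer probe were 10.71 ± 1.13 and 11.85 ± 0.34. On the log2 scale, the difference of -0.76 for the brighter probe was smaller than the coculture SD, and that of -1.14 for the dimmer probe was about equal to it. The size of both differences varied with single arrays. For the brighter probe it was -0.11 without coculture replicate 1 and -1.46 without coculture replicate 3. For the dimmer probe it was -0.62 and -1.74.

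Cd74, the gene of the invariant chain, had log2 signals of 11.24, 12.39 and 13.39 in coculture replicates 1, 2 and 3, and of 13.32, 13.14 and 12.82 in the monoculture replicates. The groups overlapped in the same way as for the brighter H2-Ab1 probe, with coculture replicates 1 and 2 below all monoculture arrays and replicate 3 above them by less than the monoculture SD. The coculture mean was 12.34 ± 1.07 and the monoculture mean 13.09 ± 0.25 (SD, n = 3 each), a difference of -0.75. Without coculture replicate 1 this difference was -0.20, and without coculture replicate 3 it was -1.27. In bulk RNA, fewer cells that carry a transcript and less of it per cell cannot be told apart.

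H2-Ea, named as the gene of the E alpha chain, was read in coculture and not in monoculture. It had log2 signals of 9.29, 11.20 and 13.10 in coculture replicates 1, 2 and 3, and of 6.72, 6.65 and 6.59 in the monoculture replicates. All 3 monoculture arrays were at background, and the groups did not overlap. Coculture was at least 21.5-fold higher by the group means. For single arrays, the bound against the monoculture background was 5.75-fold for replicate 1, 21.5-fold for replicate 2 and 80.5-fold for replicate 3. The coculture mean of 11.20 had an SD of 1.90 (n = 3).

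Ifi30 encodes the thiol reductase of endosomes and lysosomes that opens disulfide bonds of antigens, and its values had another pattern. Its log2 signals were 10.78, 11.03 and 10.64 in coculture replicates 1, 2 and 3, and 9.85, 9.68 and 10.23 in the monoculture replicates. All coculture arrays lay above all monoculture arrays, and replicate 3, the highest for the other probes, was the lowest of the coculture arrays. The means were 10.82 ± 0.20 and 9.92 ± 0.28 (SD, n = 3 each), a 1.86-fold difference, which lay between 0.78 and 1.05 on the log2 scale when any array was left out.

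**Figure D1:**
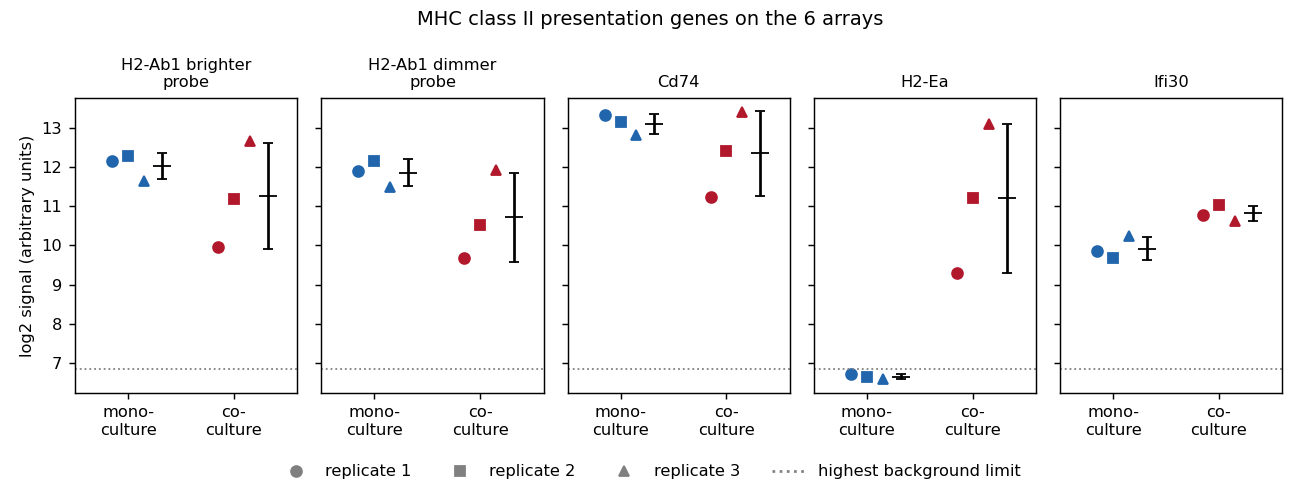
Log2 signal of the 5 probes on each of the 6 arrays (points, symbol by replicate), with the mean and SD of each group of 3 arrays (bar beside the points) and the highest background limit (dotted line). Coculture replicate 1 is the lowest and replicate 3 the highest coculture array for H2-Ab1, Cd74 and H2-Ea, while the Ifi30 coculture arrays lie between 10.64 and 11.03.

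The coculture arrays thus fell in the same order for 4 of the 5 probes, with replicate 1 lowest and replicate 3 highest. The range over the 3 coculture arrays was 3.81 on the log2 scale for H2-Ea, 2.70 and 2.23 for the H2-Ab1 probes and 2.14 for Cd74. These are 14.01-fold, 6.48-fold, 4.70-fold and 4.42-fold between the lowest and the highest array. For Ifi30 the range was 0.39. The steps were nearly equal for H2-Ea, where replicate 2 was 3.74-fold above replicate 1 and replicate 3 was 3.74-fold above replicate 2. Cd74 had steps of 2.22-fold and 1.99-fold, and the brighter H2-Ab1 probe had steps of 2.35-fold and 2.76-fold. Such a range was rare among the 18946 probes above background on at least 1 array. Of these, 494 had a coculture range of at least 1 on the log2 scale and 53 of at least 2. A monoculture range of at least 1 was found for 313 of these probes, and of at least 2 for 37. With replicate 1 lowest and replicate 3 highest, 117 probes had a range of at least 1, and 18 had a range of at least 2, among them the 4 probes of H2-Ab1, Cd74 and H2-Ea. The opposite order with a range of at least 2 was found for 8 probes. At any range, 3072 probes (16.2%) had replicate 1 lowest and replicate 3 highest, and 2623 had the opposite order. The order alone, with a small range, therefore sets no gene apart. H2-Ab1, Cd74 and H2-Ea were picked for their coculture spread, so their place among the probes with a large range was set in advance and tests nothing.

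Each group's spread was set beside that of all probes with a group mean within 0.5 on the log2 scale. In coculture, none of 521 probes at the level of Cd74 had a larger SD. For the brighter H2-Ab1 probe, 3 of 994 such probes did, for the dimmer one 7 of 1375, and for H2-Ea 1 of 1041. The median SD at these levels was between 0.15 and 0.16. In monoculture, the members were less apart from other probes of their level. There, 12.1% of 264 probes had a larger SD than Cd74, and 6.10% of 639 had a larger SD than the brighter H2-Ab1 probe. The SD of Ifi30 was exceeded by 37.9% of 1307 probes in coculture and by 14.4% of 1855 probes in monoculture. The members were picked for this spread, so these shares describe them and test nothing.

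Over the 6 arrays, H2-Ab1 and Cd74 were much alike. With each probe centred on its own mean, the brighter H2-Ab1 probe and Cd74 had a root mean square difference of 0.20 on the log2 scale (Pearson's r = 0.99 over 6 arrays). The H2-Ab1 probes differed from each other by 0.24 (r = 0.96). H2-Ea shared their order within coculture but not the level of the monoculture arrays, and its r with Cd74 was -0.09. These correlations cover 2 groups of arrays and serve as a description.

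**Figure D2:**
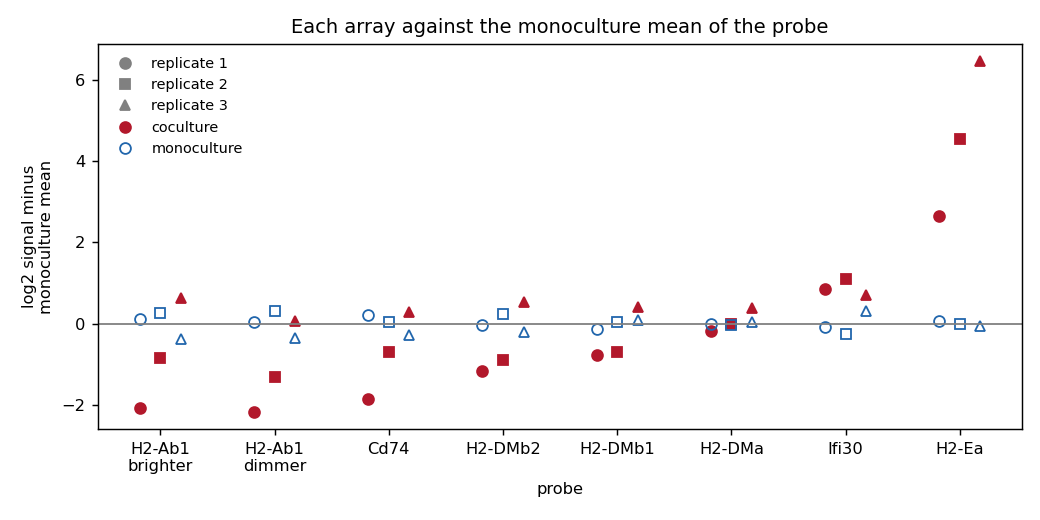
Log2 signal of each array minus the mean of the 3 monoculture arrays, for the member probes and the 3 H2-DM probes, with coculture as filled and monoculture as open symbols. Coculture replicates 1, 2 and 3 have differences of -2.07, -0.84 and 0.62 from the monoculture mean for the brighter H2-Ab1 probe, and of 2.64, 4.54 and 6.45 for H2-Ea.

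The genes with the most similar pattern were taken from the probes named by gene ID, by the smallest root mean square difference of centred log2 signals over the 6 arrays. For the brighter H2-Ab1 probe these were H2-DMb2, a beta chain of the peptide editor (difference 0.37, r = 0.95), Klk1b3, a kallikrein (0.38, r = 0.91), and Ckb, the brain type creatine kinase (0.38, r = 0.94). For Cd74 they were Ckb (0.24, r = 0.96), H2-DMb2 (0.32, r = 0.91) and the histone gene H2ac18 (0.32, r = 0.90). Ckb had log2 signals of 10.35, 11.49 and 11.87 in coculture replicates 1, 2 and 3 and of 11.98, 12.20 and 11.71 in the monoculture replicates, so all but replicate 3 in coculture lay below the monoculture arrays. Genes close to Ifi30 were the receptor gene Gpr35 (0.13, r = 0.97) and Ldha, a subunit of lactate dehydrogenase (0.14, r = 0.96). H2-Ea had no close match among the named genes. Its nearest were H2-D1 (1.08, r = 0.93), the cytokine feedback inhibitor Cish (1.23, r = 0.96) and the chemokine gene Cxcl1 (1.35, r = 0.98), and H2-D1 and Cxcl1 had the same order of coculture arrays.

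The peptide editor genes were next to the members in function, and their 3 probes had the same order of coculture arrays. H2-DMb2 had log2 signals of 10.004, 10.26 and 11.69 in coculture replicates 1, 2 and 3 and of 11.13, 11.40 and 10.95 in the monoculture replicates. Replicates 1 and 2 lay below all monoculture arrays and replicate 3 above them, as for the brighter H2-Ab1 probe. H2-DMb1, a further beta chain, had 9.59, 9.65 and 10.76 in coculture and 10.22, 10.40 and 10.43 in monoculture. The genes H2-DMb1 and H2-DMb2 are near copies, and which of them each probe reads is uncertain. H2-DMa, the alpha chain, varied less, with 11.16, 11.34 and 11.74 in coculture and 11.31 to 11.38 in monoculture. None of the 3 passed the test between the groups, with differences of -0.51 for H2-DMb2 (95% confidence interval -1.54 to 0.52), -0.35 for H2-DMb1 and 0.07 for H2-DMa (adjusted p = 0.65, 0.66 and 0.89 in limma). Without coculture replicate 3, the differences were -1.03 for H2-DMb2 and -0.73 for H2-DMb1 (limma adjusted p = 0.027 and 0.012). That array was the highest coculture array of both probes, so leaving it out had to lower the coculture mean. In the other 11 of 12 alternative settings neither probe passed.

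The other genes of the pathway were tested in a limma fit over all 46628 probes, adjusted by Benjamini and Hochberg, and calls needed a fold above 1.5 besides an adjusted p below 0.05. Of 43 such genes chosen, 22 could be named, with 25 probes. In coculture, 2 of the 25 were higher and 4 were lower, while over all probes 1.73% were called higher and 1.93% lower, and among the probes above background 4.25% and 4.74%. A further 4 of the 25 probes had an unadjusted p under 0.05 without a call. The median difference was -0.03 for the 25 probes and 0.00 for all probes. With probes at background included, 8 of the 25 had coculture replicate 1 lowest and replicate 3 highest, the H2-DM probes among them. Of all probes above background, 16.2% had this order. No probe could be named for H2-Aa, H2-Eb1, Ciita, Ctss or Cd86, among others, so these genes were not analysed here. Without coculture replicate 2, the array with the Y-linked signal, 1 probe was higher and 4 were lower.

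Of the 6 probes for endosomal proteases and a protease inhibitor, 4 were called. Ctse, the gene of the aspartic protease cathepsin E, had log2 signals of 10.12, 10.37 and 10.40 in coculture replicates 1, 2 and 3 and of 7.21, 7.33 and 8.63 in monoculture. It rose by 2.57 on the log2 scale (SE 0.37, limma adjusted p = 0.0137). Its coculture arrays had the order of the class II genes, with a range of 0.29, and 16.2% of the probes above background had this order. Ctsb, the gene of the cysteine protease cathepsin B, fell on both probes, with log2 differences of -2.00 (SE 0.22, limma adjusted p = 0.0066) and -1.15 (SE 0.18, limma adjusted p = 0.0166). On its brighter probe, coculture replicate 3 was the lowest array at 12.33, against 12.93 and 12.99 for replicates 1 and 2. Ctsz, the gene of cathepsin Z, fell with a log2 difference of -0.84 (SE 0.13, limma adjusted p = 0.017), with coculture signals of 12.90, 12.70 and 12.44 and monoculture signals of 13.40 to 13.68. Cst3, the gene of the protease inhibitor cystatin C, did not pass (-0.23, adjusted p = 0.22), and the Ctsl probe was at background on all 6 arrays. Ctsz lost its call without monoculture replicate 1 (limma adjusted p = 0.065) and with the replicate number as a block (adjusted p = 0.067). So did the brighter Ctsb probe when monoculture replicate 1 or 2 was left out (limma adjusted p = 0.066 and 0.054).

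Of the transcription factor genes of the class II promoters, 1 of 8 probes was called. Nfyb, a subunit of NF-Y, had log2 signals of 9.52, 9.78 and 9.54 in coculture and of 8.94, 9.16 and 8.82 in monoculture, a log2 rise of 0.64 (SE 0.11, limma adjusted p = 0.0227). This call was lost in 6 of 12 alternative settings, among them every one that left out a coculture array. Its coculture arrays did not follow the order of the class II genes. The subunit gene Nfya had a difference of 0.03, and the Nfyc probe was at background on all arrays. The RFX genes Rfx5, Rfxank and Rfxap had differences of -0.05, 0.01 and 0.22 and did not pass (adjusted p from 0.40 to 0.97).

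Cd40, a costimulatory receptor of antigen presenting cells, fell on its brighter probe with a log2 difference of -0.97 (SE 0.11, limma adjusted p = 0.0073), and had log2 signals of 7.21, 7.61 and 7.33 in coculture and 8.25, 8.33 and 8.48 in monoculture. Its other probe was at background on all arrays. Marchf8, a ubiquitin ligase of surface receptors, had a difference of -0.48, or 1.40-fold. It missed both the 1.5-fold threshold and that of the adjusted p (0.0514 in limma). Of the interferon gamma axis, none of the 5 named genes was called. In limma, 2 had an unadjusted p under 0.05, namely Ifngr2 and a gene not reported here. The receptor subunit gene Ifngr2 had a difference of -0.64 (adjusted p = 0.079) and the transcription factor gene Irf1 one of -0.46 (adjusted p = 0.28). The kinase gene Jak2 and the feedback inhibitor gene Socs1 were within 0.03 of no difference. Irf1 had log2 signals of 9.69, 9.99 and 10.03 in coculture replicates 1, 2 and 3, with a range of 0.34. This is the order of the class II genes, which 16.2% of the probes above background had.

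**Figure D3:**
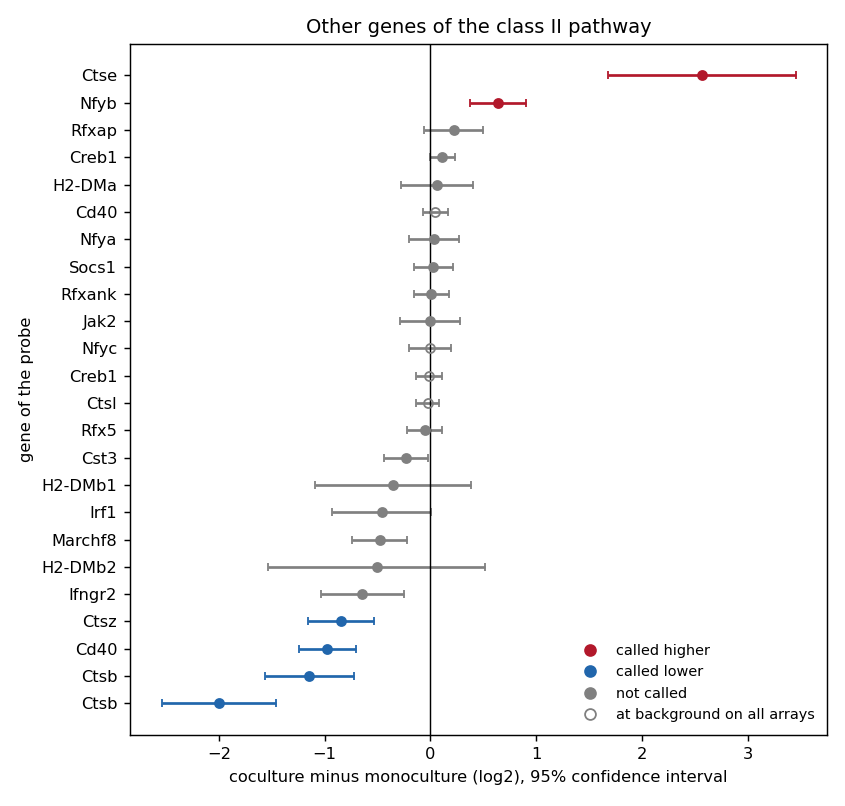
Difference of the group means (coculture minus monoculture, log2, n = 3 arrays each) with its 95% confidence interval for 24 of the 25 probes of the class II pathway outside the members. Ctse and Nfyb lie to the right at 2.57 and 0.64, and Ctsb, Cd40 and Ctsz are the 4 called probes to the left, between -2.00 and -0.84.

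Class II genes are read from any antigen presenting cell in the sorted SC, so markers of such cells were set beside them. Before culture, the bone marrow had been depleted of cells with lineage antigens, among them CD45R of B cells, CD11b of myeloid cells and CD5 of T cells, a step meant to remove mature blood cells, macrophages included. Of 15 dendritic cell genes, 2 could be named, and both lay near background. Batf3, a transcription factor of dendritic cells, had log2 signals of 6.69, 7.002 and 7.17 in coculture replicates 1, 2 and 3 and of 7.49 to 7.65 in monoculture (difference -0.60, adjusted p = 0.040 in limma). Zbtb46 had 6.82, 6.87 and 6.97 in coculture and 6.80 to 6.81 in monoculture. Both had the order of the class II genes in coculture, as had 16.2% of the probes above background. The summed linear signal of the list was 216 to 270.0 in coculture and 291 to 313 in monoculture. The part of dendritic cells in the class II levels was not tested.

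Of 18 macrophage genes, 10 could be named, with 12 probes, of which 4 were lower and none higher in coculture, against 1.93% of all probes lower and 4.74% of those above background. The brighter probe of Gpnmb, a transmembrane protein of macrophages, had log2 signals of 10.78, 10.32 and 7.97 in coculture replicates 1, 2 and 3 and of 14.24 to 14.43 in monoculture. Cd68, a lysosomal protein of macrophages, had 10.96, 11.30 and 10.19 in coculture and 12.82 to 12.94 in monoculture. Replicate 3, highest for the class II genes, was thus lowest for these macrophage genes. The summed linear signal of the list was 30814, 35933 and 25568 in coculture replicates 1, 2 and 3 and 63376 to 69394 in monoculture. Lyz2, the lysozyme gene of myeloid cells, had means of 14.47 ± 0.07 in coculture and 14.60 ± 0.08 in monoculture on its brighter probe (SD, n = 3 each). The part of macrophages in the class II levels was not tested.

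Of 13 B cell genes, 4 could be named, with 5 probes, and none was called. Ebf1, a transcription factor of B cells, had 6.95 to 7.01 in coculture and 7.47, 7.76 and 7.09 in monoculture replicates 1, 2 and 3, and the Fcer2a probes were at background. Igll1, a surrogate light chain of B cell precursors and the brightest of the list in coculture, had 7.19, 7.15 and 6.74 in coculture and 7.02, 7.51 and 6.28 in monoculture. The summed linear signal of these probes was 517 to 560.4 in coculture and 516 to 765 in monoculture. Of 9 probes for immunoglobulin constant regions, taken after their values were seen, 3 were at background, 2 were lower in coculture and none was higher, against the same 1.93% and 4.74% of probes lower. Igkc, the kappa light chain, had log2 signals of 8.10, 8.22 and 8.53 in coculture replicates 1, 2 and 3, and of 11.47, 11.69 and 9.51 in monoculture replicates 1, 2 and 3. Its monoculture arrays thus had the order of both H2-Ab1 probes, with replicate 3 lowest and replicate 2 highest. Ighm, the mu heavy chain, had 9.29, 9.67 and 9.99 in coculture and 10.58, 10.79 and 9.58 in monoculture, and so had the order of the H2-Ab1 probes in both groups (difference -0.67, adjusted p = 0.39). The part of B cells in the class II levels was not tested.

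The 3 T cell probes, of Cd3e and Cd247, were at background on all arrays. Of 18 heart muscle genes, 6 could be named. The alpha-myosin gene Myh6 and 3 others stayed at background throughout. Mybpc3, a myosin binding protein, had the larger difference of the other 2, with 0.21 (limma adjusted p = 0.26). Its coculture signals of 6.87, 6.98 and 7.20 had the order of the class II genes, as had 16.2% of the probes above background. Atp2a2, a calcium pump and the brightest of the list, had 7.29 to 7.62 in coculture and 7.32 to 7.50 in monoculture (difference 0.07). The summed linear signal of the heart muscle genes was 654 to 667 in coculture and 620.1 to 646 in monoculture. Of 12 fibroblast and endothelial genes, 6 could be named and 5 were at background on all arrays. Pecam1, an adhesion molecule of endothelial and blood cells, had 8.73, 8.94 and 9.41 in coculture replicates 1, 2 and 3 and 9.37 to 9.73 in monoculture (difference -0.52, adjusted p = 0.19).

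**Figure D4:**
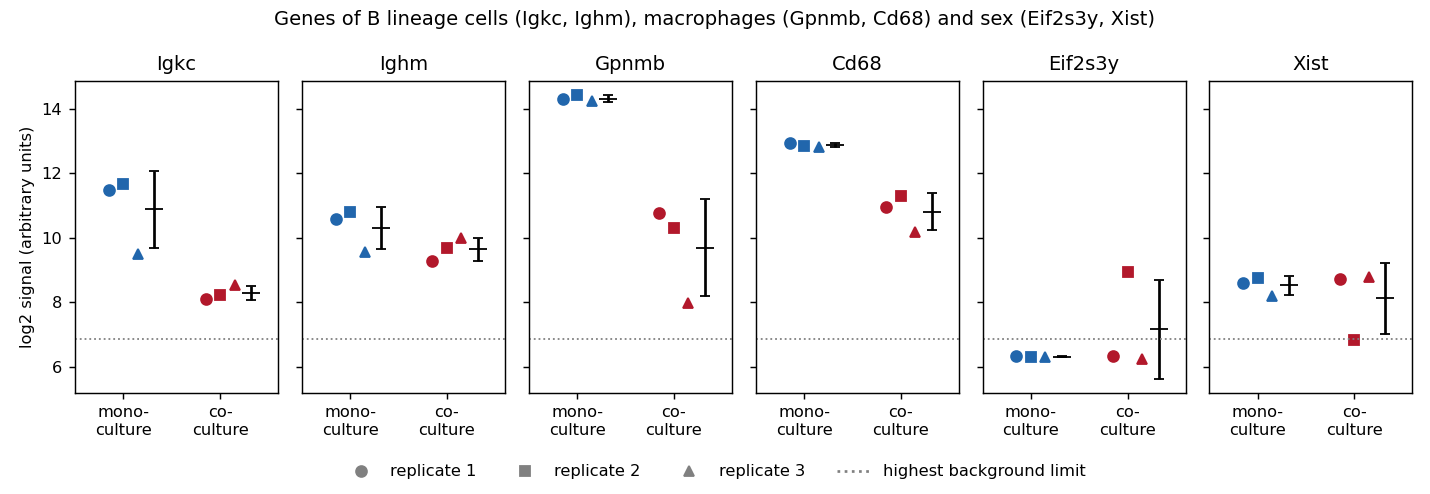
Log2 signal on the 6 arrays of B lineage (Igkc, Ighm), macrophage (Gpnmb, Cd68) and sex-linked genes (Eif2s3y, Xist), with the mean and SD of 3 arrays per group and the highest background limit (dotted line). Igkc is lowest in monoculture replicate 3 at 9.51, Gpnmb is lowest in coculture replicate 3 at 7.97, and Eif2s3y is above background on coculture replicate 2 alone, at 8.93.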

How the data were processed

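RNA of lin-/c-kit+ hematopoietic SC was measured on 6 mouse bead arrays, 3 per group. The authors discarded outlier beads, took the mean bead signal per probe and applied quartile normalization between arrays. The deposited log2 values run from 5.81 to 14.85. A further table, with 12 columns that no label ties to a sample (raw signals and detection values), was not used. Probe names were joined to the mouse RefSeq genes of GRCm38.p6 by gene ID (9796 probes, 8102 genes). No chromosome positions are given, since the sources name no genome build for the array. Coculture was set against monoculture with limma 3.58.1 (R 4.3.3), without a filter on dim probes and without a replicate block. Same-numbered coculture and monoculture arrays did not deviate together (Pearson's r of -0.14, -0.13 and -0.11). The fit was tested on simulated data. Arrays give no read depth, and their number limits the precision. Linear signals were 2 to the power of the log2 value.

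The members, gene lists and tests were chosen with earlier results of these data known. Named were the member probes, all called pathway probes and the 6 largest differences among those not called, the 3 nearest patterns of each member and, per marker list, its brightest probes and largest difference. Other genes were named after their values were seen. A gene near Ifi30 and a pathway gene under this rule are not reported here. Alternatives were other variance priors, array weights, another normalization, a filter, a block and leaving out each array.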

Additional observations from a re-analysis of the deposited data

How the results depend on the processing

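With 3 arrays per group, single arrays set much of the outcome. Over all probes, 806 were called higher and 898 lower. Leaving out 1 array gave 433 to 922 higher and 583 to 907 lower. The lowest numbers came without coculture replicate 1 (490 higher, 583 lower) and without monoculture replicate 1 (433 higher, 588 lower). Without a fold threshold, 1514 were higher and 1500 lower. The replicate block gave 571 and 610, and 2 higher and 3 lower in the class II pathway. No array correlated best with its own number. In the pathway, leaving out 1 array gave 1 to 2 higher and 2 to 6 lower probes, and a trend in the variance prior gave 1 higher. Ctsz lost its call with the block, and Nfyb, Ctsz and the brighter Ctsb probe with some of the other settings. Ifngr2 passed without the probes at background (adjusted p = 0.044) and Irf1 without monoculture replicate 3 (adjusted p = 0.042). The differences of the members were tried without each array, with cyclic loess normalization, with group medians and with signals raised to the background limit. They kept their direction in these settings. The members were chosen by their values on these arrays, so this describes them and tests nothing. Without 1 array, the differences ranged from -1.46 to -0.11 and from -1.74 to -0.62 for the H2-Ab1 probes and from -1.27 to -0.20 for Cd74. Those of H2-Ea ranged from 3.59 to 5.49 and those of Ifi30 from 0.78 to 1.05. Cyclic loess normalization moved none of the member differences by more than their SD.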

Other observations

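Of the genes around H2-Ab1 in the MHC region, 1 was called. Within 25 genes on each side, in the RefSeq order, 10 genes outside the members had named probes, 11 in all. None was higher, and 1 was lower in coculture, the class I gene H2-K1 (difference -1.45, adjusted p = 0.028 in limma). Over all probes 1.93% were lower, and 4.74% of those above background. H2-K1 had log2 signals of 8.55, 8.18 and 7.46 in coculture replicates 1, 2 and 3, the reverse order of H2-Ab1. Of the 11 probes, 5 had the coculture order of H2-Ab1, the H2-DM probes and Psmb8 among them. Among all probes above background, 16.2% had this order. Psmb8, a subunit of the immunoproteasome, had 10.18, 10.19 and 10.66 in coculture and 9.82 to 10.04 in monoculture, and did not pass (difference 0.42, adjusted p = 0.18). H2-Ea lies 4 genes from H2-Ab1 in this order. The window was chosen after the values were seen.

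Other named genes shared the order of the coculture arrays, with replicate 1 lowest, replicate 3 highest and a range of at least 1 on the log2 scale. There were 31 such probes of 30 genes outside the members. Of these, 9 were replication-dependent histone genes, with ranges from 1.02 to 1.51, and 4 probes belonged to 3 kallikrein genes of the Klk1b family. Genes of both families are near copies, and their probes are not independent readings. Rgs1, a regulator of G protein signaling in lymphocytes, had 7.22, 8.77 and 9.72 in coculture replicates 1, 2 and 3 and 10.44, 10.80 and 9.33 in monoculture. Its monoculture arrays were in the order of H2-Ab1 and Igkc, with replicate 3 lowest. Ccrl2, a chemokine binding receptor, had 8.31, 8.77 and 10.02 in coculture and 9.12, 9.37 and 8.72 in monoculture. These genes were picked after their values were seen, and no test was made.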
